A study of Mus musculus with 3 samples.

Results

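The cells described here are CD8 T cells of the mouse liver, taken 4 days after a paracetamol (acetaminophen, APAP) overdose and measured by single-cell RNA sequencing. They were selected on their own measured counts of unique molecular identifiers (UMIs, 1 per captured transcript). A barcode could be a member if it showed 200 genes or more and 500 UMIs or more, of which no more than 20% came from mitochondrial genes. It also needed 2 or more UMIs of Cd3e, Cd3d and Cd3g in sum and at least 1 UMI of Cd8a or Cd8b1, with 0 UMIs of Cd4, Trdc, Cd79a and C1qb. In all, 517 of the 30684 barcodes within the quality limits met the rule. Each of the 3 groups was 1 library from 1 mouse, and every mouse, controls included, had received APAP at 500 mg/kg. At 6 h the mice were given PBS alone, native mesenchymal stromal cells (MSCs), or MSCs that had been engineered with bispecific polyvalent peptides. Strain, age and sex of the mice and the source of the MSCs are not given in the sources used here. With 1 mouse a group, differences between livers have no replicate check, and treatment, mouse and library cannot be told apart.

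CD8 T cells recognise peptides on MHC class I and kill the cells that carry them, mostly by releasing perforin and granzymes. Naive CD8 T cells circulate through lymphoid organs and keep Ccr7 and Lef1. Cells that have met antigen lose these transcripts in part and gain Ccl5, Nkg7, granzymes and receptors shared with NK cells. The liver holds both kinds, together with resident memory cells.

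The PBS library gave 66 CD8 T cells of 10437 kept barcodes, the native MSC library 153 of 10203, and the engineered MSC library 298 of 10044. These are 0.632% (95% exact binomial interval 0.489 to 0.804%), 1.5% (1.27 to 1.76%) and 2.97% (2.64 to 3.32%), and the intervals do not overlap. The share was 2.37 times that of PBS in native MSC and 4.69 times in engineered MSC. Among alpha-beta T cells, gated by CD3 alone with Trdc, Cd79a and C1qb at 0, the order was another. CD8 T cells were 30.4% (24.4 to 37.0%) of 217 such cells in PBS, 44.2% (38.9 to 49.6%) of 346 in native MSC and 29.7% (26.9 to 32.7%) of 1003 in engineered MSC. Alpha-beta T cells as a whole were 2.08%, 3.39% and 9.99% of kept barcodes. The engineered MSC library thus had the largest share of T cells, and the native MSC library the largest CD8 share among them. Intervals here and below cover counting error only, the shares describe the cells recovered, and how many cells a whole liver held is not known.

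The C1qb condition took away unequal parts of the gate. C1qb encodes a complement protein made by macrophages, and it alone removed 47 of 121 barcodes that met the positive conditions in PBS, 53 of 223 in native MSC and 36 of 381 in engineered MSC. B cells, which do not make it, were gated by at least 2 UMIs of Cd79a, Cd79b and Ms4a1 in sum with no CD3 UMI, and before any C1qb condition they held a C1qb UMI in 43.8%, 30.8% and 10.1% of barcodes in the same order. Without the C1qb condition the shares were 1.08%, 2.02% and 3.33%, in the same order as with it. A Ccl5 UMI was found in 25.5%, 66.0% and 36.1% of the removed barcodes, the same order of livers as in the members, and 28, 40 and 27 of them held a single C1qb UMI.

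Markers that the rule did not use set the members apart from B cells, but less so from CD4 T cells and NK cells, gated as given below. Nkg7, a membrane protein of cytotoxic granules, stood at 612.5, 1332 and 806 CPM in that order of livers and at 0.895, 29.9 and 11.1 CPM in B cells of the same libraries. It stood at 186, 776 and 391 CPM in CD4 T cells and at 1735, 1852 and 1722 CPM in NK cells. CPM, counts per 1e6, is a gene's UMI sum in the gated cells of a library, scaled by all UMIs of those cells. Trac, the constant chain of the alpha-beta receptor, stood at 377, 478 and 392 CPM. Among transcripts of other lymphocytes, Trdv4 of gamma-delta T cells had 0 UMIs in every library, where the rule had already required Trdc at 0. A count of 0 allows up to 10.4, 2.58 and 1.63 CPM, at 3 UMIs. Ncr1 and Klra8 of NK cells had 0, 0 and 4 UMIs each. With Eomes and Klrb1c added, this NK list of 4 genes summed to 90.0, 71.3 and 71.8 CPM in the members. A B cell list of 5 genes summed to 266.5, 143 and 231 CPM in them. Xist was at 0 UMIs in the members of each library and the Y-linked Ddx3y at 41, 94 and 214 UMIs. A median of 7, 11 and 8 CD3 UMIs stood behind each member. At the edge of the rule, 4, 2 and 9 members had exactly 2 CD3 UMIs, and 3, 1 and 4 barcodes with 1 were left out. Members with a single Cd8a or Cd8b1 UMI numbered 15, 18 and 49, and 95, 106 and 427 barcodes that met every other condition had none. These counts chose the members and are given as a description. The summed members held 288964, 1163499 and 1837654 UMIs, and the median cell had 3907, 5771 and 4941 UMIs. Of barcode sequences, 39 to 46 occurred in both libraries of a pair, and none of these was a CD8 T cell in both.

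Against CD4 T cells of the same livers, CD8 T cells held more cytotoxic transcripts and less of the transcripts of helper and regulatory T cells. CD4 T cells were gated by the same CD3 condition with at least 1 Cd4 UMI and 0 UMIs of Cd8a, Cd8b1, Trdc, Cd79a and C1qb, which gave 55, 83 and 269 cells. Counts were summed per gate and liver and compared over the 3 livers, paired by liver, with edgeR's quasi-likelihood test and Benjamini-Hochberg adjustment. Of 8351 genes tested, 114 (1.37%) were higher in CD8 T cells at an adjusted p below 0.05 and 139 (1.66%) were lower. At an unadjusted p below that threshold there were 1184 genes. Genes of either gate were not tested.

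Cytotoxic genes differed as a group. Of 10 listed, 8 rose relative to CD4 T cells (Gzma, Gzmb, Gzmk, Gzmm, Prf1, Nkg7, Cst7 and Ctsw), 0 fell, and Srgn and Fasl did not pass. The median log2 difference of the list was 1.90, against 0.01 over all genes tested. Gzma, a granzyme that enters target cells through perforin, stood at 128, 554 and 284 CPM in CD8 T cells of the 3 livers, in the order PBS, native MSC, engineered MSC, and at 0, 62.8 and 2.55 CPM in CD4 T cells. The CD8 levels were above the CD4 level of the same liver 3 times of 3, with a log2 difference of 4.40 ± 0.42 (SE; edgeR adjusted p = 6.2e-05). Gzmk, a granzyme typical of memory CD8 T cells, stood at 24.2, 59.3 and 50.1 CPM against 14.3, 8.72 and 3.19 (log2 difference 3.102 ± 0.42, edgeR adjusted p = 0.000998). Its PBS value rested on 7 and 3 UMIs. Prf1, the pore-forming perforin, stood at 41.5, 61.9 and 46.3 CPM against 9.53, 17.4 and 13.4 (log2 difference 1.88 ± 0.28, edgeR adjusted p = 0.00155). The 2 gates did not overlap for Prf1. Gzmb, the granzyme that cuts caspases, was the exception by liver. It stood at 27.7 CPM against 33.4 in PBS, 792 against 342 in native MSC and 288 against 36.4 in engineered MSC, so that the PBS liver showed no excess (log2 difference 1.92 ± 0.32, edgeR adjusted p = 0.00347).

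The promoters of 4 of these genes are shown because the genes moved together and because T-box factors (Eomes, Tbx21) and Runx factors (Runx3) are the regulators best known for this gene group. Each runs from 250 bases before the RefSeq start to 50 after it, 5′ to 3′ on the gene's strand, in the GRCm38.p6 build, with motif matches in capitals. The letters searched were AGGTGTGA for T-box and TGTGGT for Runx, on both strands, so that a Runx match on the other strand reads ACCACA. The 2 motifs overlapped nowhere in these 4.
Gzma, chr13:113100932-113101231, minus strand: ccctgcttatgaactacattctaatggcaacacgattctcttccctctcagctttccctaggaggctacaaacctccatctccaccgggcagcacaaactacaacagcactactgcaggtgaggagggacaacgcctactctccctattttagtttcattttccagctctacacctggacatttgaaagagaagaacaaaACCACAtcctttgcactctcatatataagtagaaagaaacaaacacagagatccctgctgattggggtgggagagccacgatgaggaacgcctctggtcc
Gzmb, chr14:56262285-56262584, minus strand: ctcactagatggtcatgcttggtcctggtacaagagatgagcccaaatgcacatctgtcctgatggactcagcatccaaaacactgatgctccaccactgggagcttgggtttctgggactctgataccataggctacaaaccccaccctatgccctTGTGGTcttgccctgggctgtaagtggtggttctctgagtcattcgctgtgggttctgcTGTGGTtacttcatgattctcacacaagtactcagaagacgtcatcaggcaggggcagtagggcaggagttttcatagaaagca
Prf1, chr10:61297586-61297885, plus strand: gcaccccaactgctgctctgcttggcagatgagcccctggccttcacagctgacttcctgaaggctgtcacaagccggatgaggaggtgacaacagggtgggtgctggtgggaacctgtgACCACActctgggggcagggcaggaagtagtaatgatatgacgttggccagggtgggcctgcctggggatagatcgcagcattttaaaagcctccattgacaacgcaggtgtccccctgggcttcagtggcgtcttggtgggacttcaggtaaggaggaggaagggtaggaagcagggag
Nkg7, chr7:43436888-43437187, plus strand: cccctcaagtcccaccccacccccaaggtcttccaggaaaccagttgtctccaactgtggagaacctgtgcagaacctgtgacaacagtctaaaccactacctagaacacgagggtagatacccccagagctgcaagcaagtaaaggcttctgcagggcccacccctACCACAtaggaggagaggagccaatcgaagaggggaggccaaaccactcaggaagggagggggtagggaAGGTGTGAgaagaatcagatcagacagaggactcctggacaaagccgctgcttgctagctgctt
The Gzmb window held 2 Runx matches, and those of Gzma, Prf1 and Nkg7 held 1 each. The T-box letters occurred in the Nkg7 window alone of the 4, at -14 from the start site. Of 32851 promoters of the same length, 16.8% held the Runx letters and 1.27% (419) the T-box letters. Over the 9 cytotoxic genes with a RefSeq window, 7 of 11 windows held the Runx letters and 1 the T-box letters. The windows of Gzmk and Fasl, and 1 of 2 each of Gzmm and Srgn, held neither. The 4 shown thus all hold a match while the list does not, and a match is a description of the sequence that shows no binding.

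The regulators themselves differed between the gates. Eomes, a T-box factor of memory and effector CD8 T cells, stood at 86.5, 59.3 and 52.2 CPM in CD8 T cells and at 0 UMIs in CD4 T cells of each liver. Summed over livers this was at least 45.3-fold higher, set against a floor of 3 UMIs over the CD4 gate (edgeR adjusted p = 5.22e-05). Runx3, which holds the CD8 lineage in place, stood at 346, 234 and 229 CPM against 90.5, 94.2 and 67.6, without overlap (log2 difference 1.69 ± 0.17, edgeR adjusted p = 7.25e-05). Tbx21 did not pass, at 51.9, 140 and 127 CPM against 153, 166 and 187. Of the 10 transcription factors listed, Eomes, Runx3 and Zeb2 rose, Id2 and Bhlhe40 fell, and 5 did not pass. Zbtb7b, the factor that sets the CD4 lineage, was lower in CD8 T cells of every liver, at 3.46, 3.44 and 4.90 CPM against 28.6, 27.9 and 31.9 (log2 difference -2.75 ± 0.40, edgeR adjusted p = 0.00153).

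Chemokines and cytokines split. Ccl5, a chemokine kept ready in antigen-experienced CD8 T cells, stood at 1166, 2931 and 2565 CPM against 438, 822 and 482 in CD4 T cells (log2 difference 2.00 ± 0.17, edgeR adjusted p = 2.65e-05). Ifng, the macrophage-activating interferon gamma, went the other way, at 17.3, 99.7 and 43.5 CPM against 81.0, 368 and 104 (log2 difference -1.57 ± 0.19, edgeR adjusted p = 0.000305). Tnf fell likewise, at 6.92, 29.2 and 22.9 CPM against 57.2, 119 and 56.1 (log2 difference -1.68 ± 0.26, edgeR adjusted p = 0.00216). Of 7 cytokine genes tested, 1 rose and 2 fell. In each liver the CD8 T cells thus had more Ccl5 and less Ifng and Tnf RNA than the CD4 T cells beside them.

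The activation and homing lists leaned to CD4 T cells. Of 10 activation genes, Cd44, Il2ra and Icos fell and 0 rose. Icos, a costimulatory receptor, stood at 118, 217 and 114 CPM against 424, 518 and 343 (log2 difference -1.45 ± 0.16, edgeR adjusted p = 0.000146). Of 12 residency and homing genes tested, Cxcr6, Itgb1, Rgs1 and Ccr2 fell and 1 rose. That 1 was Itgae, the CD103 integrin chain that binds E-cadherin, at 48.5, 17.2 and 50.1 CPM against 4.77, 10.5 and 3.19 (log2 difference 2.86 ± 0.52, edgeR adjusted p = 0.0065). Of 10 naive genes tested, 3 rose, Ccr7 and Dapl1 among them. Ccr7, the receptor that guides T cells to lymph nodes, stood at 246, 125 and 148 CPM against 210, 43.6 and 75.9 (log2 difference 0.95 ± 0.21, edgeR adjusted p = 0.0224). Klrd1, Ly6c2 and Cd7 rose out of 10 NK receptor genes tested. Mki67 and Top2a, genes of dividing cells, fell out of 10 cell cycle genes. Mki67 stood at 34.6, 204 and 164 CPM against 172, 403 and 290 (log2 difference -1.003 ± 0.19, edgeR adjusted p = 0.0106). No T cell receptor signalling gene of 11 and no immediate early gene of 9 passed.

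By fitted size, the leading genes on the CD8 side after Eomes were Klra7, Crtam, Bend4, Gzma, Gzmm, Smyd1, Gzmk, Itgae and Fam241a. Crtam, an adhesion receptor of activated cytotoxic cells, stood at 41.5, 64.5 and 49.5 CPM against 4.77, 0 and 0.638. Fam241a stood at 453, 190 and 172 CPM against 4.77, 41.9 and 29.3. On the CD4 side they were Il4, Foxp3, St8sia6, Cd40lg, Tnfrsf4, Ccr4, Ly6c1, Tmem273, Asb2 and Zbtb7b. Il4, the type 2 helper cytokine, had 1, 0 and 8 UMIs in CD8 T cells against 36, 43 and 434 (log2 difference -6.08 ± 0.32, edgeR adjusted p = 1.78e-07). Cd40lg, the helper signal to B cells, had 0, 1 and 21 UMIs against 36, 97 and 349. Foxp3, the factor of regulatory T cells, had 0, 1 and 0 UMIs against 9, 8 and 29. Zbtb16 and Klrb1c, markers of NKT cells, summed to 267, 69.8 and 346 CPM in the CD4 gate and to 10.4, 49.9 and 37.6 CPM in the CD8 gate, and their part in the Il4 difference was not tested. Sparc and Stab2, endothelial genes chosen here after their values were seen, also passed as higher in CD8 T cells (log2 differences 2.82 and 1.63). Their counts lay in few cells. In engineered MSC, 3 cells held 81.1% of the 423 Sparc UMIs and 3 cells held 70.7% of the 201 Stab2 UMIs. In PBS, 2 cells held all 24 Stab2 UMIs. Stab2 was above the CD4 level in these livers but not in native MSC, at 0.860 CPM against 3.49. An endothelial list summed to 488, 184 and 621 CPM in the CD8 gate and to 453, 227 and 400 CPM in the CD4 gate. Its part in these calls was not tested.

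**Figure D1:**
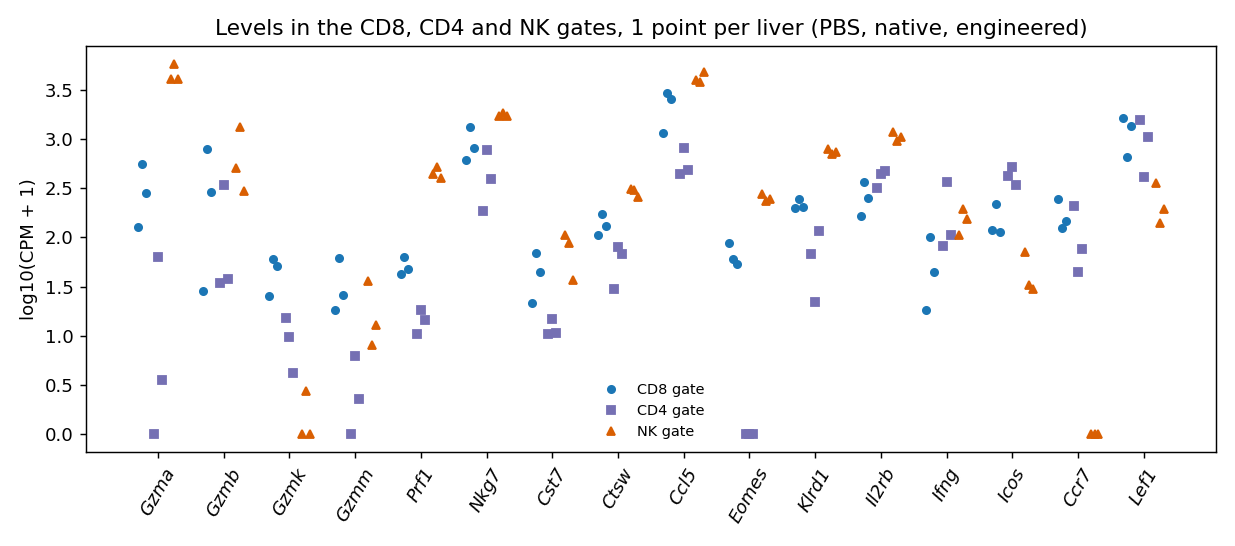
Levels of 16 genes, as log10(CPM + 1), in the CD8, CD4 and NK gates, with 1 point for each liver and PBS, native MSC and engineered MSC from left to right within a gate. Eomes is at 0 in the CD4 gate of all 3 livers and Ccr7 at 0 in the NK gate, and for Prf1 the CD8 gate lies between the other gates in every liver.

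Some of these calls were lost when 1 liver, and with it a pair of samples, was left out. With the engineered MSC library left out, Zeb2, Dapl1, Ccr7, Ccr2, Top2a, Igtp, Id2 and Cd44 no longer passed, without native MSC the same held for Rgs1, Bhlhe40, Ccr7 and Id2, and without PBS for Cd44 and Bhlhe40 (adjusted p from 0.0532 to 0.199 by edgeR). Their directions did not change, and for Ccr7 the log2 difference was 0.93 without engineered MSC. Without that library Cst7, Foxp3, Gzmm, Itgae, Klra7, Smyd1, St8sia6, Tmem273 and Tnfrsf4 were too low to be tested. DESeq2 did not call Gzmb, Fam241a, Ly6c1, Ly6c2, Zeb2, Dapl1, Ccr7, Top2a and Igtp.

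Against NK cells the effector genes split. Of the 8 cytotoxic genes that rose against CD4 T cells, Gzma, Prf1, Nkg7 and Ctsw fell against NK cells, Gzmk and Gzmm rose, and Gzmb and Cst7 did not pass. NK cells were gated by at least 1 UMI of Ncr1 or Klrb1c with no CD3 UMI and Cd79a and C1qb at 0, which gave 29, 82 and 128 cells. Of 7449 genes tested, 385 (5.17%) were higher in CD8 T cells and 557 (7.48%) were lower at an edgeR adjusted p below 0.05. Of 10 cytotoxic genes, Gzma, Prf1, Nkg7, Ctsw and Fasl fell, Gzmk and Gzmm rose, and 3 did not pass. Gzma in CD8 T cells, at the levels given above, compared with 4083, 5781 and 4072 CPM in NK cells (log2 difference -3.86 ± 0.29, edgeR adjusted p = 2.52e-06). Prf1 compared with 440, 525 and 398 CPM (log2 difference -3.05 ± 0.17, edgeR adjusted p = 3.13e-07). Gzmk was the reverse, with 0, 1 and 0 UMIs in NK cells against 7, 69 and 92 (log2 difference 5.83 ± 0.66, edgeR adjusted p = 7.49e-05). Eomes fell too, since NK cells had 278, 234 and 244 CPM (log2 difference -1.93 ± 0.19, edgeR adjusted p = 1.84e-05). Eomes thus stood between the gates, with 0 UMIs in CD4 T cells and the highest level in NK cells in every liver.

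What CD8 T cells had over NK cells was naive and T cell receptor machinery. Of 10 naive genes, 7 rose (Ccr7, Lef1, Tcf7, Il7r, S1pr1, Satb1 and Dapl1) and 0 fell. Lef1, a factor of naive and stem-like T cells, stood at 1640, 657 and 1360 CPM against 359, 139 and 195 (log2 difference 2.55 ± 0.20, edgeR adjusted p = 2.52e-06). Ccr7 had 0 UMIs in all 3 NK samples, and its level in CD8 T cells was at least 61.5-fold higher, with 3 UMIs as the NK floor. Dapl1 (at least 38.1-fold), St8sia1 (at least 33.1-fold) and Irf4 (at least 15.1-fold) had 0 UMIs in NK cells as well. Of 11 T cell receptor signalling genes, 6 rose, among them Cd247, Lat, Trac, Trbc1 and Trbc2, and 0 fell. The NK gate required 0 CD3 UMIs, which selects against T cells. The other leading genes were Cd5, Themis, Cd6, Nsg2 and Fam169b.

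On the NK side the leading genes were Eya1, Klra4, Klra8, Klrb1b, Khdc1a, Sh2d1b1, Styk1, Cma1, Phactr3 and Kcnip3. Eya1 had 0 UMIs in CD8 T cells and 108 in NK cells, at least 95.1-fold lower, and Klra8, an Ly49 receptor, had 0, 0 and 4 UMIs against 55, 213 and 249. Of 10 NK receptor genes tested, 8 fell and Ly6c2 rose. Klrk1, the NKG2D receptor, stood at 41.5, 106 and 56.0 CPM against 949, 522 and 795 (log2 difference -3.23 ± 0.30, edgeR adjusted p = 1.14e-05). Of 7 cytokine genes tested, Ccl3, Ccl4, Ccl5, Xcl1 and Ifng fell and Tnfsf8 rose. Xcl1, which draws cross-presenting dendritic cells, stood at 17.3, 82.5 and 110 CPM against 532, 829 and 644 (log2 difference -3.06 ± 0.26, edgeR adjusted p = 5.2e-06). The red cell list described below summed to 11.6 CPM in NK cells of PBS (1 UMI, as in CD8 T cells) and 696 CPM in native MSC, where CD8 T cells had 12263 CPM, and its part in the calls was not tested. The NK samples were small, at 86448, 569119 and 589888 UMIs. Without the engineered MSC library the counts dropped to 150 higher and 296 lower, and among those named Nkg7, Gzmm, Ccl5, Satb1, Gbp2, Fosb, Pclaf, Cd7, Nr4a1, Dusp1 and Entpd1 no longer passed by edgeR. Without native MSC, Gzmm, Ccl5, Cxcr6, Fosb and Pclaf did not pass (adjusted p from 0.0598 to 0.641 over these by edgeR). Khdc1a, Phactr3, S1pr5, Sh2d1b1 and St8sia1 were too low to be tested without engineered MSC. DESeq2 did not call Gbp2, Fosb, Gzmm, Pclaf, Cxcr6, Cd7, Nr4a1, Satb1 and Dusp1 against NK cells.

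Between livers, CD8 T cells of the PBS liver were richest in naive transcripts and those of the native MSC liver in effector and cell cycle transcripts, with the engineered MSC liver between them for most genes. No test was possible with 1 mouse a group. A gene was counted as different at 2-fold or more, provided both libraries together held 20 UMIs of it. For native MSC against PBS, 12.5% of 7637 such genes were at least 2-fold higher and 7.41% at least 2-fold lower. For engineered MSC against PBS the values were 15.7% and 3.53% of 9198 genes, and for engineered MSC against native MSC 12.7% and 4.69% of 10015. Many of these are transcripts of other liver cells, described below. A further count, chosen after the values were seen, took genes at least 2-fold higher in the gate than in the other barcodes. This was judged only in the liver of the pair where the gene was higher. A gene could thus enter through the liver where it was high, and these shares are a description only. By this count native MSC against PBS had 14% higher and 14.6% lower of 2142. Engineered MSC against PBS had 10.6% and 6.76% of 1998, and engineered against native MSC 8.57% and 7.57% of 1995.

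**Figure D2:**
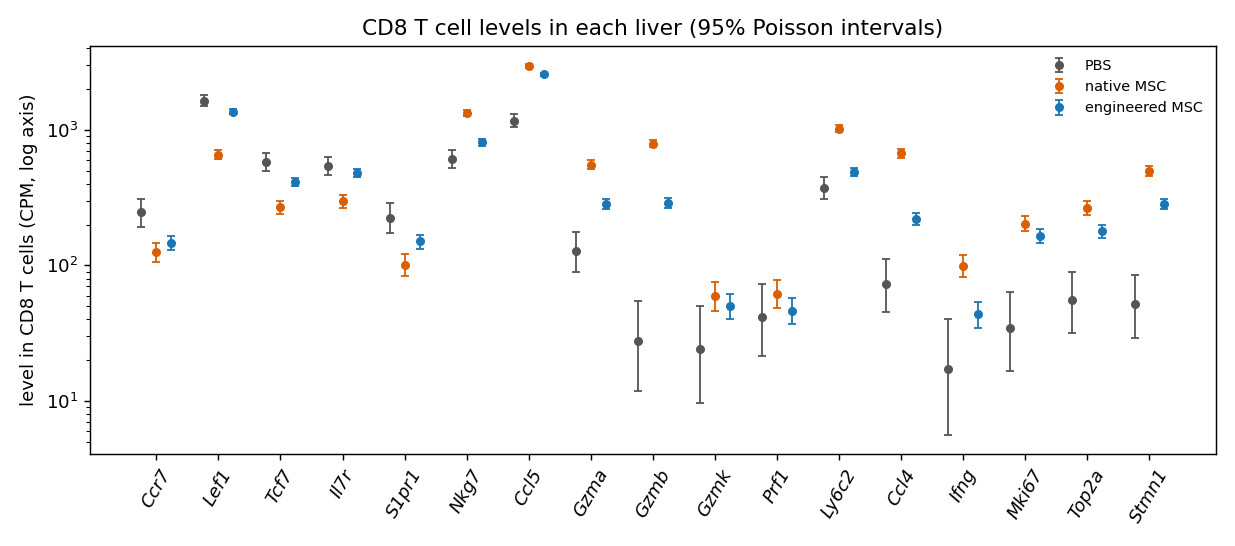
Levels of 17 genes in CD8 T cells, in CPM on a log axis, by liver, with 95% Poisson intervals of the counts and 1 library per liver. From Ccr7 to S1pr1 the PBS points are the highest and the native MSC points the lowest, and from Nkg7 to Stmn1 the native MSC points are the highest.

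All 10 naive genes had lower levels in native MSC than in PBS, 4 of them at least 2-fold, with a median log2 ratio of -0.97 against -0.01 over all genes. Lef1 stood at 1640 CPM in PBS (474 UMIs), 657 in native MSC and 1360 in engineered MSC. This is 2.50-fold lower in native MSC than in PBS (95% interval 2.22 to 2.81) and 1.21-fold lower in engineered MSC (1.09 to 1.33). Ccr7 stood at 246, 125 and 148 CPM, Tcf7 at 581, 267 and 411, and S1pr1, the receptor by which T cells leave tissue, at 225, 101.4 and 150. Il7r, the survival receptor of naive and memory cells, stood at 543, 297 and 480 CPM and was 1.13-fold lower in engineered MSC than in PBS (0.949 to 1.34), an interval that includes 1. In engineered MSC, 9 of 10 naive genes stood above native MSC (median log2 ratio 0.54, against 0.15 over all genes). The exception was Klf2, at 1308, 887 and 760 CPM.

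Cytotoxic genes had the opposite order. In native MSC against PBS, 9 of 10 were higher and 7 at least 2-fold, with a median log2 ratio of 1.51. Gzmb stood at 27.7 CPM in PBS (8 UMIs), 792 in native MSC (921 UMIs) and 288 in engineered MSC (529 UMIs). Native MSC was 28.6-fold above PBS (14.5 to 66.4), engineered MSC 10.4-fold above PBS (5.24 to 24.2), and engineered MSC 2.75-fold below native MSC (2.47 to 3.07). Gzma stood at 128, 554 and 284 CPM, but its 37 UMIs in PBS lay in 3 cells, and 3 cells held 36.3% of them in native MSC and 41.4% in engineered MSC. Nkg7 stood at 612.5, 1332 and 806 CPM, which is 2.17-fold above PBS in native MSC (1.86 to 2.56) and 1.32-fold in engineered MSC (1.12 to 1.55). Prf1, at 41.5, 61.9 and 46.3 CPM, had an interval that included 1 in every pair, with native MSC 1.49-fold above PBS (0.803 to 3.02). In engineered MSC against native MSC, 0 of 10 cytotoxic genes were higher, and Gzmb and Gzmm were at least 2-fold lower. In B cells Gzmb stood at 0, 30.6 and 5.71 CPM and Gzma at 2.69, 107 and 28.9 CPM, in the same order of livers as in CD8 T cells, and the part of free RNA in these levels was not tested.

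Among cytokines, Ccl4, a chemokine of activated T and NK cells, stood at 72.7, 670 and 220 CPM. It was 9.21-fold above PBS in native MSC (5.98 to 15.0) and 3.05-fold lower in engineered than in native MSC (2.70 to 3.44), and in B cells it stood at 124, 150 and 77.0 CPM. Ccl5 stood at 1166, 2931 and 2565 CPM, close together in the MSC livers (1.14-fold lower in engineered MSC, 1.09 to 1.19). Ifng stood at 17.3, 99.7 and 43.5 CPM on 5, 116 and 80 UMIs. Xcl1 had another order, at 17.3, 82.5 and 110 CPM, with engineered MSC highest (1.33-fold above native MSC, 1.04 to 1.72). Tnfsf8 was lower in the MSC livers, at 90.0, 44.7 and 46.8 CPM.

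Cell cycle genes were low in PBS. All 10 were higher in native MSC, 9 of them at least 2-fold, with a median log2 ratio of 2.22, and all 10 were higher in engineered MSC, 6 at least 2-fold, with a median of 1.66. Stmn1, a tubulin regulator of dividing cells, stood at 51.9, 497 and 285 CPM, 9.57-fold above PBS in native MSC (5.75 to 17.2). Mki67 stood at 34.6, 204 and 164 CPM, with 10 UMIs in PBS. CD4 T cells of the same livers had 172, 403 and 290 CPM of Mki67, so the order of the livers was shared with them. In engineered against native MSC all 10 were lower, with a median of -0.56.

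Receptors and factors differed in size and order. Ly6c2, a surface antigen of memory and effector CD8 T cells, stood at 374, 1016 and 489 CPM, 2.72-fold above PBS in native MSC (2.23 to 3.34). Klrc1, the inhibitory NKG2A chain, stood at 20.8, 115 and 61.5 CPM, on 6 UMIs in PBS. Il2rb, the IL-2 and IL-15 receptor chain, stood at 166, 370 and 250 CPM. Tbx21 stood at 51.9, 140 and 127 CPM, whereas Eomes stood at 86.5, 59.3 and 52.2 and Runx3 at 346, 234 and 229. The pair of T-box factors thus had unlike orders across livers. Checkpoint genes were uneven. Ctla4 stood at 83.1, 105 and 109 CPM (24, 122 and 201 UMIs), found in 19.7%, 41.2% and 25.8% of cells. Cd160 stood at 31.15, 106 and 56.6 CPM (9, 123 and 104 UMIs) and Entpd1 at 10.4, 59.3 and 29.4 CPM (3, 69 and 54 UMIs). In native MSC against PBS, Cd160 was 3.39-fold higher (1.73 to 7.60) and Ctla4 1.26-fold (0.810 to 2.05). The others had few counts: Pdcd1, which encodes PD-1, had 5, 12 and 11 UMIs, Lag3 had 1, 7 and 18, Havcr2 had 3, 12 and 35, Tigit had 3, 19 and 15, and Cd244a had 4, 11 and 21. These counts are not scaled for the unequal UMI sums of the livers. In CPM, Pdcd1 stood at 17.3, 10.3 and 5.99 and Cd244a at 13.8, 9.45 and 11.4, both highest in PBS. Lag3 stood at 3.46, 6.02 and 9.80 CPM, Havcr2 at 10.4, 10.3 and 19.05, and Tigit at 10.4, 16.3 and 8.16. Tox, a factor of chronically stimulated T cells that naive T cells also carry, stood at 388, 161 and 443 CPM.

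A few genes were highest in the engineered MSC liver. Id3, a regulator of memory precursors, stood at 90.0, 60.2 and 228 CPM, 3.78-fold above native MSC (2.93 to 4.94). It was found in 28.8%, 20.3% and 27.2% of cells, so the share of cells with Id3 was not highest in engineered MSC. CD4 T cells had 90.5, 76.8 and 72.1 CPM of Id3, without that order, and NK cells had 46.3, 42.2 and 187 CPM. Itga4, the alpha 4 integrin chain, stood at 464, 323 and 751 CPM, and Itga1, a collagen-binding chain of tissue-resident cells, at 20.8, 8.60 and 58.2 CPM. Endothelial cells also carry Id3 and Itga1, and the endothelial list described below was highest in the same library, so its part in these levels was not tested. Of the interferon response genes, 11 of 12 were higher in engineered than in native MSC, 4 at least 2-fold, with a median log2 ratio of 0.44. Over all genes of that pair the median was 0.15, and 12.7% were at least 2-fold higher. Ifit3 stood at 10.4, 6.02 and 27.8 CPM, on 3, 7 and 51 UMIs. CD4 T cells had 14.3, 5.23 and 35.1 CPM of Ifit3, on 3, 3 and 55 UMIs.

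Ccr2 and the adaptors Fcer1g and Tyrobp were lowest in engineered MSC, and these are transcripts that monocytes and macrophages make in quantity. Fcer1g stood at 312, 229 and 77.3 CPM and at 380, 428 and 83.0 CPM in B cells. Ccr2 stood at 104, 138 and 45.2 CPM. Its log2 ratio of engineered MSC to PBS was -1.20, and it was 0.09 without the barcodes of highest doublet score and 0.02 without those holding at least 2 UMIs of 6 macrophage and endothelial genes named below. Zeb2 stood at 111, 245 and 149 CPM, with a log2 ratio of 1.15 for native MSC against PBS that became -0.28 when the C1qb condition was dropped. Neither gene had a direction that held across these choices.

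The same order was seen when single cells were counted at equal depth. Each cell was thinned to 1500 UMIs, which left out 2, 0 and 1 cells, and shares are of 64, 153 and 297 cells with exact binomial 95% intervals. Ccl5 was detected in 20.3% (11.3 to 32.2%) of PBS cells, 49.7% (41.5 to 57.9%) of native MSC cells and 34.3% (29.0 to 40.0%) of engineered MSC cells. Unthinned, the shares were 25.8%, 57.5% and 40.6%. In B cells thinned alike, Ccl5 was found in 0.279%, 1.86% and 0.850%, and their median depth was 2283, 2430 and 2919 UMIs. CD4 T cells thinned alike had Ccl5 in 18.2%, 38.6% and 27.2%. Any of Gzma, Gzmb and Gzmk was found in 7.81% (2.58 to 17.3%), 32.7% (25.3 to 40.7%) and 18.9% (14.6 to 23.8%), against at most 1.55% of B cells. CD4 T cells had 5.45%, 21.7% and 5.97% by the same count. Lef1 was found in 85.9% (75.0 to 93.4%), 51.6% (43.4 to 59.8%) and 68.3% (62.7 to 73.6%). In CD4 T cells Lef1 was found in 69.1%, 41.0% and 60.1%. The order of the livers was thus shared with CD4 T cells for Ccl5, the granzymes and Lef1. The native MSC interval lay apart from the PBS interval for Ccl5, the granzymes and Lef1, and from the engineered MSC interval for Ccl5, the granzymes and Lef1 as well.

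Cell cycle genes were counted in the same thinned cells. Mki67 or Top2a was found in 3.13% (0.381 to 10.8%), 19.0% (13.1 to 26.1%) and 10.4% (7.20 to 14.5%). CD4 T cells had 5.45%, 26.5% and 16.0% by the same count and B cells 0.559%, 2.79% and 4.25%. In PBS this was 2 cells, and the native and engineered MSC intervals overlapped.

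**Figure D3:**
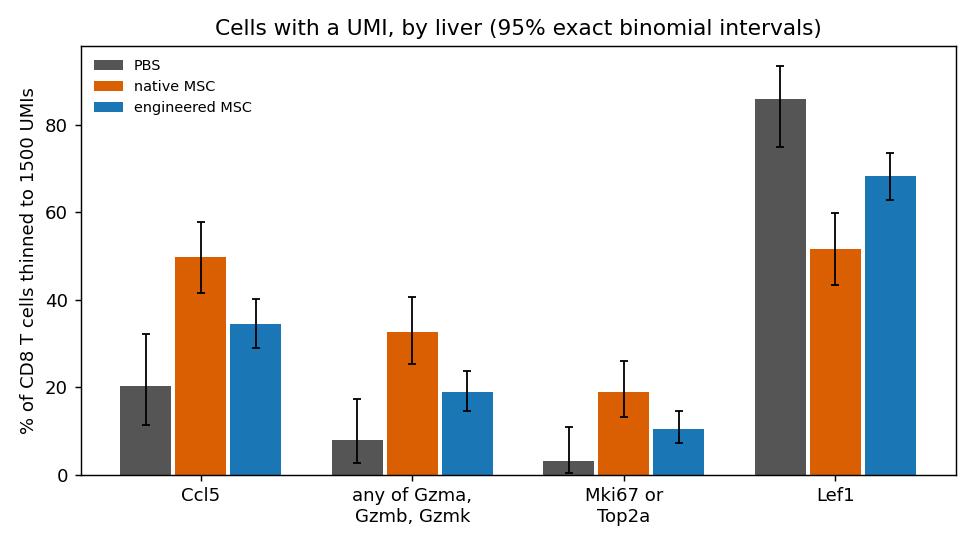
Percent of CD8 T cells, thinned to 1500 UMIs, in which Ccl5, any of Gzma, Gzmb and Gzmk, Mki67 or Top2a, and Lef1 were detected, by liver, with exact binomial 95% intervals. Ccl5 is found in 20.3%, 49.7% and 34.3% of PBS, native MSC and engineered MSC cells, and Lef1 in 85.9%, 51.6% and 68.3%.

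Granzymes were found together and mostly beside Ccl5. Without thinning, 6, 76 and 71 cells had any of Gzma, Gzmb and Gzmk, and 5, 68 and 67 of these also had Ccl5. In native MSC 71 cells had Gzmb and 42 had Gzma, and 40 had both. In engineered MSC the counts were 59, 38 and 32. Gzmk was found in 3, 35 and 33 cells, of which 2, 32 and 27 also had Gzmb. Deeper cells show more of every gene, which raises such joint counts.

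The order was partly kept within the cells that had Ccl5, which were 17, 88 and 121 cells of 66, 153 and 298. In these, Gzmb stood at 76.1 CPM (30.6 to 157) in PBS, 1174 (1098 to 1254) in native MSC and 650 (595 to 709) in engineered MSC. Ly6c2 stood at 566, 1408 and 775 CPM. Lef1 stood at 936, 326 and 596 CPM and Tcf7 at 566, 170 and 253. Klrd1, a partner chain of NKG2 receptors, had another order, at 424, 287 and 267 CPM, as did Xcl1, at 54.4, 126 and 213 CPM, and Eomes, at 196, 83.5 and 69.6 CPM. Prf1 did not separate, at 87.0 (37.6 to 172), 75.5 (57.2 to 97.8) and 74.7 (56.8 to 96.3) CPM. Mki67 or Top2a UMIs were found in 17.6% (3.80 to 43.4%), 44.3% (33.7 to 55.3%) and 30.6% (22.5 to 39.6%) of cells with Ccl5, and in 4.08%, 18.5% and 6.78% of cells without it. These shares are unthinned, and the cells with cycle genes were deeper, with a median of 10336 UMIs in native MSC against 7035 for all cells with Ccl5. Cells without Ccl5 had Lef1 in 95.9%, 98.5% and 99.4%, and cells with Ccl5 in 100%, 70.5% and 71.9%, all unthinned. In PBS all 17 cells with Ccl5 thus had Lef1 as well.

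**Figure D4:**
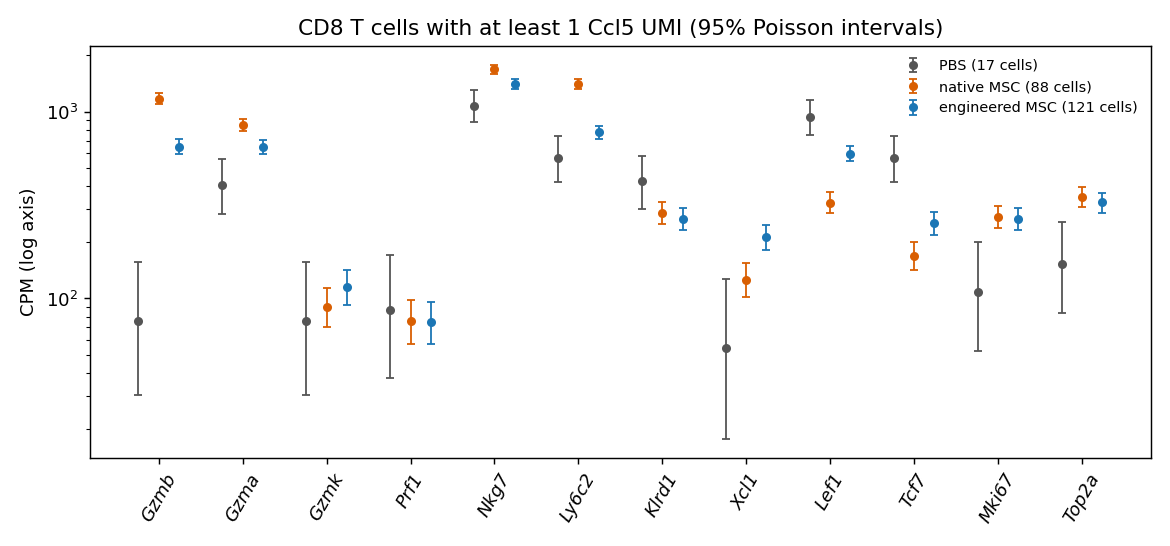
Levels of 12 genes in CD8 T cells with at least 1 Ccl5 UMI, in CPM on a log axis, by liver, with 95% Poisson intervals of the counts. Gzmb is at 76.1, 1174 and 650 CPM in the PBS, native and engineered MSC livers, and the 3 intervals of Prf1 overlap.

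RNA of other liver cells was found in the gated cells, at levels that differed between livers. A hepatocyte list of 6 genes summed to 253, 1673 and 4270 CPM in CD8 T cells and to 373, 1363 and 7168 CPM in B cells, with no list gene at 0. A red cell list of 5 genes summed to 3.46, 12263 and 2387 CPM, with Hba-a2, Hbb-bs, Hbb-bt and Alas2 at 0 UMIs in PBS. It summed to 9.53, 16307 and 2692 CPM in CD4 T cells and to 2294, 19719 and 3216 CPM in B cells, so B cells of the PBS library did hold such RNA. A macrophage and Kupffer cell list of 7 genes summed to 1062, 794 and 102 CPM, and 1412, 1651 and 251 CPM in B cells. A neutrophil list of 4 genes summed to 457, 723 and 66.9 CPM, and 381, 2176 and 226 CPM in B cells. An endothelial list of 5 genes summed to 488, 184 and 621 CPM, with Kdr and Clec4g at 0 in native MSC. Barcodes with at least 2 UMIs in sum of Stab2, Kdr, Clec4g, Adgre1, Csf1r and Clec4f, a set chosen after the values were seen that leaves out abundant genes such as Lyz2, were 5 of 66, 6 of 153 and 13 of 298. Without them CD8 T cells were 0.584%, 1.44% and 2.84% of kept barcodes, cells with a granzyme 8.33%, 36.7% and 18.7%, and cells with Mki67 or Top2a 5%, 16.3% and 9.86%, each in the same order as with them. The part of this RNA in other differences was not tested.

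**Figure D5:**
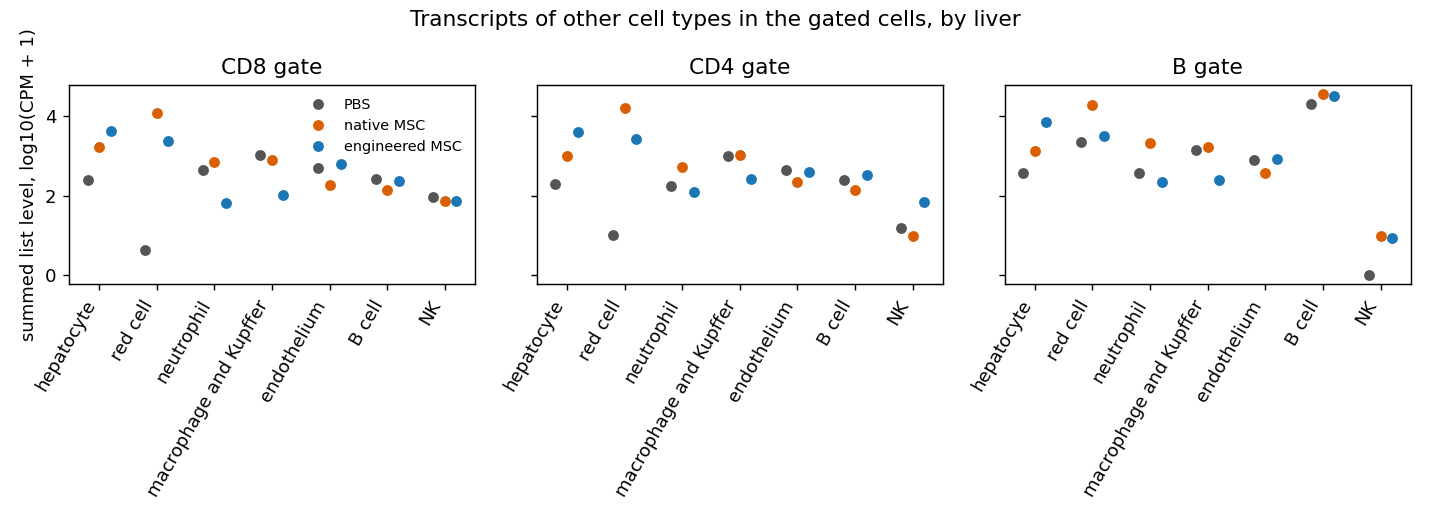
Summed levels of marker lists of other cell types, as log10(CPM + 1), in the CD8, CD4 and B gates, by liver. The hepatocyte sum is lowest in PBS and highest in engineered MSC in all 3 gates, and the red cell sum is highest in native MSC in all 3.

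The rule that names the genes furthest from equality between livers mostly found such RNA. In native MSC against PBS it named H1f5, Gzmb, Saa1, Orm1 and Bhmt as higher and Stab2, Nrg1, Cd5l, Cd74 and Sdc3 as lower. Saa1, Orm1 and Bhmt are hepatocyte genes, Stab2 is endothelial and Cd5l is of Kupffer cells. In engineered MSC against PBS it named Fabp1, Mup3, Serpina1e, Gc and Mup20 as higher and Chil3, Lyz2, S100a9, Clec7a and Nrg1 as lower. In engineered against native MSC it named Sparc, Igfbp7, Col1a2, Ptprb and Stab2 as higher and Chil3, Spi1, Lyz2, S100a9 and Saa3 as lower. Lyz2, a myeloid lysozyme, stood at 758, 678 and 53.9 CPM in CD8 T cells and at 981, 1447 and 161 CPM in B cells. The Col1a2 counts of engineered MSC lay in few cells, with 219 UMIs in 4 cells, of which 3 held 99.5%.

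The same rule was also applied, after the values were seen, to genes enriched in the gate, as judged in the liver where each was higher. Among the genes it named were those below, of which Acta2, Tagln and Nrg1, given last, lay in few cells. H1f5, a linker histone of dividing cells, stood at 13.8, 541.5 and 201 CPM, found in 2 of 66, 42 of 153 and 31 of 298 cells. Il12rb2, the signalling chain of the IL-12 receptor, stood at 6.92, 133 and 39.7 CPM in CD8 T cells and at 143, 267 and 90.6 CPM in CD4 T cells, found in 3.03%, 30.1% and 12.8% of CD8 T cells. Serpinb9, an inhibitor of granzyme B, stood at 13.8, 125 and 41.4 CPM. St8sia1, a sialyltransferase, stood at 114, 18.9 and 113 CPM, and Slc28a2b, a nucleoside transporter, at 65.7, 7.73 and 66.4 CPM. St8sia1 was found in 27.3%, 10.5% and 36.6% of cells. Rapgef4 stood at 142, 35.2 and 148 CPM. For Il12rb2 and Serpinb9 native MSC was highest and PBS lowest in CD8 T cells. For St8sia1, Slc28a2b and Rapgef4 native MSC was lowest and the other livers close together. Native MSC was also lowest for these genes in CD4 T cells. There St8sia1 stood at 109.6, 34.89 and 100.8 CPM, Slc28a2b at 23.83, 15.7 and 34.45, and Rapgef4 at 128.7, 22.68 and 91.23. H1f5, at 19.06, 676.8 and 367.5 CPM in CD4 T cells, also had the CD8 order. Serpinb9, at 57.18, 88.96 and 24.24 CPM in them, did not, and like Il12rb2 was lowest in engineered MSC. Acta2 and Tagln were named as higher in engineered MSC, but Tagln lay in 1 cell and Acta2 in 4. Nrg1 was named as lower in the MSC livers, with its 30 UMIs of PBS in 3 cells.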

How the data were processed

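Single cells of 3 livers were profiled with 10x 3' chemistry. The authors deposited raw UMI counts per gene and barcode (34099 genes), made with Cell Ranger 7.1.0 on GRCm39 per the submitters' processing notes. Gates were applied to these counts, and counts of gated cells were summed per liver. CD8 sums were compared with CD4 and NK sums with edgeR 4.0.16 (quasi-likelihood test, TMM factors, filter on low counts, liver as a block because the gates share a liver, Benjamini-Hochberg adjustment), on R 4.3.3. The p-values rest on 3 mice, 1 per treatment. Each SE was worked back from the test, as the absolute log2 difference divided by the square root of the quasi-likelihood F statistic. The script was tested on simulated data. Between livers there is no test, and intervals are Poisson or exact binomial at 95%, for counting error only. Doublets were not removed in the main values; Scrublet (scanpy 1.11.5) served as an alternative, as did DESeq2 1.42.0. Named genes are those of the lists, the 10 with the largest fitted change in each direction that differ alike in every liver, and, between livers, the 5 in each direction whose interval lies furthest from equality (at least 20 UMIs and 50 CPM). Members and lists were chosen with earlier results of these data known. Sequences are from RefSeq, GRCm38.p6. Some results on a few genes, and the split of cells that used one of them, are not reported here.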

Additional observations from a re-analysis of the deposited data

How the results depend on the processing

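Treatment, mouse and library coincide, and PBS rests on 66 cells. For each value below that moved, the cause was not tested unless the setting itself removes cells, genes or samples. Against CD4, DESeq2 called 47 genes higher and 71 lower, no filter on low counts 283 and 261, and the fit with no replicate block 5 and 7. Against NK, DESeq2 called 193 and 309, no filter 610 higher, and no replicate block 106 and 194 (8 of 49 named genes passed against CD4 without the block, and 53 of 79 against NK). Leaving out 1 liver gave 115 to 145 higher and 111 to 174 lower genes against CD4, and 150 to 505 higher and 296 to 751 lower against NK, the lowest without engineered MSC. With RLE factors every named gene of both comparisons passed.

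With Cd8a and Cd8b1 at 2 or more UMIs, CD8 T cells were 0.489% of kept barcodes and 23.5% of alpha-beta T cells in PBS, and 2.48% and 24.8% in engineered MSC. With Cd8b1 required, engineered MSC had 2.51% and 25.1%. With CD3 at 1 or more, the share of alpha-beta T cells was 35.3% in native and 26.0% in engineered MSC. With C1qb not used, an alternative added after seeing the data, the shares were 1.08%, 2.02% and 3.33%, and 540 genes were lower in engineered MSC than in PBS. With 50 UMIs required, higher and lower genes numbered 437 and 233 for native MSC against PBS, 614 and 102 for engineered MSC against PBS, and 603 and 259 for engineered against native MSC. Among enriched genes, also added later, they numbered 300 and 312, 212 and 135, and 171 and 151. Thinned to 1000 UMIs, Mki67 or Top2a was found in 0% of PBS and 13.1% of native MSC cells. Zeb2 reversed to -0.28 (log2, native MSC against PBS) with C1qb not used, and Ccr2 to 0.094 without high doublet scores and 0.020 without other-lineage barcodes (engineered MSC against PBS).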

Other observations

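The barcodes that the C1qb condition alone removed were described apart, since 47, 53 and 36 of them met every other condition. Their median depth was 4195, 9266 and 7118.5 UMIs in PBS, native MSC and engineered MSC. Gzmb was found in 4.26% (0.520 to 14.5%), 60.4% (46.0 to 73.6%) and 19.4% (8.19 to 36.0%) of them, and Lef1 in 95.7%, 86.8% and 91.7%. Adgre1, a macrophage gene, was found in 14.9%, 18.9% and 16.7%. These barcodes were deeper than the members in native and engineered MSC, and their detection shares are unthinned.

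Of 9 immediate early genes, 8 were lower in engineered MSC than in PBS, 2 of them at least 2-fold, with a median log2 ratio of -0.72 against 0.10 over all genes and -0.17 over genes enriched in the gate. In native MSC 7 of 9 were lower than in PBS, with a median of -0.34 against -0.01 over all genes and -0.28 over enriched genes. Dusp1 stood at 367, 311 and 146 CPM in CD8 T cells and at 359, 457 and 118 CPM in B cells.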
